A study of Danio rerio with 6 samples.

Results

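The genes described are slc17a6b, slc17a7a and slc17a8, 3 vesicular glutamate transporter genes of the zebrafish. They were taken by name, with every target that carries one of these symbols: 4 targets out of 38489 on the array, and 3 genes out of 9619 that could be paired with a current symbol. A target is a transcript represented by a set of probes, here 3 probes for each. RNA came from whole brains of AB strain females aged 12 months, and each brain was hybridised to its own one-colour array. The lead group (n = 3 brains) came from embryos kept in 100 ppb lead acetate from less than 2 hours until 72 hours after fertilization and raised afterwards in clean water. The control group (n = 3 brains) was treated alike at 0 ppb. All values below are on the log2 scale of the deposited target intensity unless called an intensity, and a difference is always lead minus control with its standard error. Nothing in the labels says whether siblings or tanks were shared, so p-values measure the spread between these single brains.

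Vesicular glutamate transporters pump glutamate from the cytoplasm into synaptic vesicles, driven by the electrochemical proton gradient that a vesicular ATPase builds up. The forms encoded by SLC17A6 and SLC17A7 are used as markers of glutamatergic neurons. In mammals the form encoded by SLC17A7 prevails in cerebral cortex and in cerebellar granule cells, the form encoded by SLC17A6 in thalamus, midbrain and hindbrain, and the form encoded by SLC17A8 in scattered neurons and in sensory hair cells of the inner ear. The zebrafish slc17a7a is a known marker of cerebellar granule cells, slc17a6b is one of a pair of SLC17A6 duplicates, and slc17a8 serves transmitter release from hair cells of the ear and lateral line. In whole-brain RNA, fewer cells of a type and less RNA per cell cannot be told apart.

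Signal of slc17a7a was higher in the lead brains and split the controls, slc17a6b was near the same level in both groups, and slc17a8 was high in a single control brain. None of these differences passed adjustment over the whole array, where limma called 0.0% of targets, a count of 0, and the ordinary linear model called 0 as well. Unadjusted, limma gave 1696 targets with p under 0.05 (4.41% called, 2.57% higher and 1.83% lower) and the ordinary model 1655. Of the 4 transporter targets, 1 had such a p and 1 had groups that did not overlap, as 9.49% of all targets did. All 4 targets lay on every array above background, taken as the value that 95% of that array's random probes stay under, 9.89 to 10.36. The nearest to it was slc17a8 in lead 1, at 10.74 against 10.36.

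After the authors' normalization the arrays had median target intensities of 2100 to 2211, with 59.8% to 66.7% of their targets over background. The median probe intensity was 1194.71 on all 6, so like medians do not show that the RNA samples were alike. Of 14 measured general neuron markers, 14 lay above background on every array, while 15 of 21 photoreceptor and pineal markers lay below it on all 6. Control replicate 1 stood apart through genes of pituitary and inner ear, with values given beside slc17a8. The image names in the files number the arrays of a single scan, and controls and lead brains hold separate runs of these numbers, so array position and exposure cannot be told apart.

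**Figure D1:**
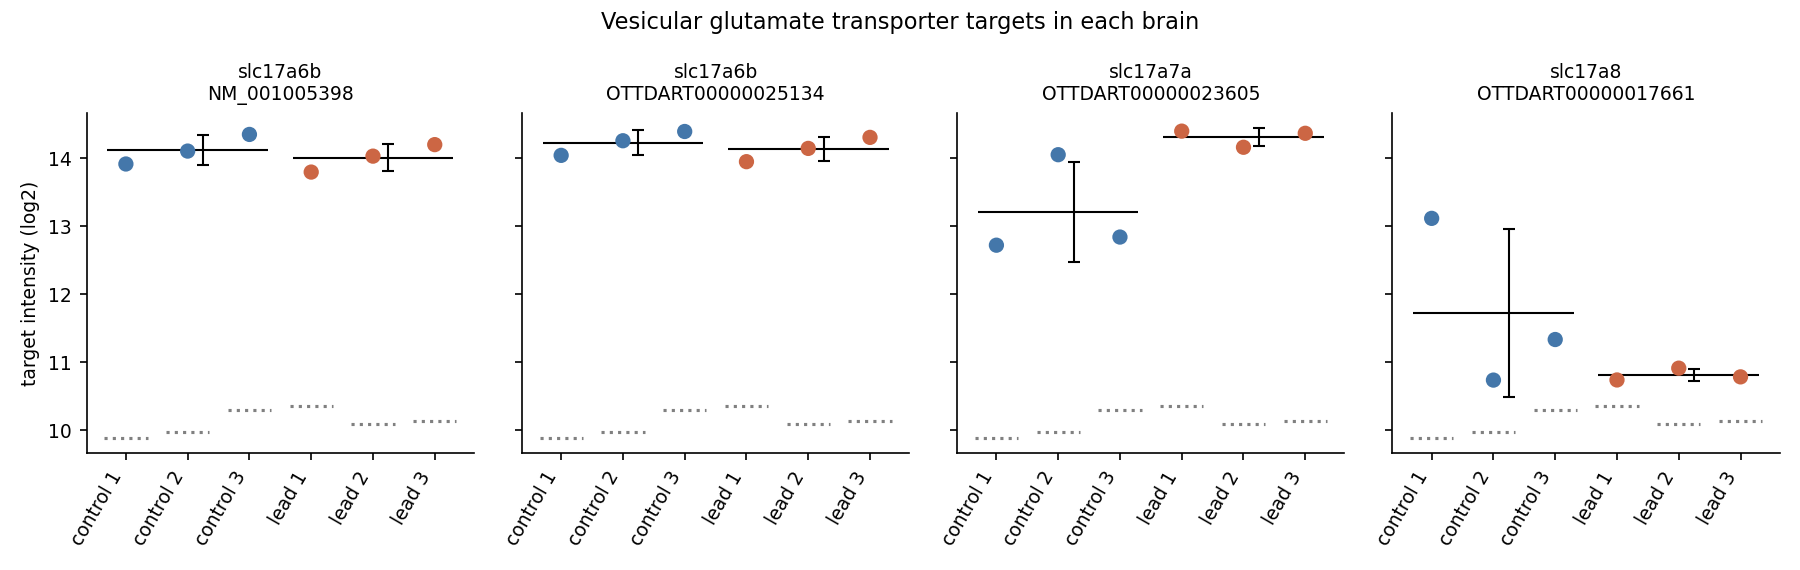
Target intensity (log2, vertical axis) of the 4 transporter targets in each of the 6 brains; blue points are controls and orange points lead brains, black lines are group means with bars of 1 SD (n = 3), and dotted grey lines mark the random-probe background of each array. Controls 1 and 3 lie low for slc17a7a at 12.72 and 12.84, and control 1 alone lies high for slc17a8 at 13.12.

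Transporter slc17a7a is named through its older symbol slc17a7 on target OTTDART00000023605 (chromosome 3, 9487242 to 9528713, on an assembly that is not given in the sources used here). Its intensity was 6753, 16970 and 7337 in controls 1, 2 and 3. In lead brains 1, 2 and 3 the intensity was 21572, 18305 and 21102. Control 2 thus stood with the lead brains, and controls 1 and 3 had the lowest signal. The groups did not overlap, by a margin of 0.11 between control 2 and lead 2, and 5.74% of all targets were higher in lead without overlap. The mean was 13.20 ± 0.74 in controls and 14.31 ± 0.13 in lead brains (SD, n = 3). The difference was 1.103 ± 0.35, a ratio of 2.15, with a 95% interval of 0.28 to 1.92, an unadjusted p of 0.0155 and an adjusted p of 0.958 in limma. An exact permutation test of this single target, two-sided, gave p = 0.1, the smallest that 3 against 3 brains allow. In the ordinary linear model the same difference had an unadjusted p of 0.0627 and an interval of −0.09 to 2.30, which includes 0. The size rests on which controls are counted: it was 1.53 ± 0.15 without control 2 (adjusted p = 0.193), 0.86 without control 1 and 0.92 without control 3, where the unadjusted p in limma was 0.055 and the interval −0.03 to 1.87. Without lead 1, 2 or 3 in turn it was 1.06, 1.18 and 1.07. Over the 6 brains this target spanned 1.68, a wider span than that of 95.7% of all targets, whose median span was 0.61.

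Target OTTDART00000025134 of slc17a6b (chromosome 7, 23729977 to 23747536, also on the assembly that is not given) had intensities of 16856, 19562 and 21493 in controls 1, 2 and 3. The lead brains 1, 2 and 3 had 15807, 18094 and 20244. The groups overlapped, with 4 of the 6 brains in the shared stretch. The difference was −0.10 ± 0.16 with an interval of −0.47 to 0.27 (adjusted p = 0.971 in limma), so it holds a fall of up to 0.47 and a rise of up to 0.27. The second target, NM_001005398 (Zv7 chromosome 7, 30711602 to 30729608), lay at 13.91, 14.10 and 14.35 in controls and at 13.80, 14.03 and 14.20 in lead brains, with a difference of −0.11 ± 0.17. Both targets put the 6 brains in one order, from lead 1 lowest to control 3 highest. Neighbours in that order, which alternate between the groups, differed by less than the group SD of 0.18 to 0.22. A further target with no symbol, NM_001005321, covers the same stretch (Zv7 chromosome 7, 30711500 to 30729642) and lay at −0.05 ± 0.20.

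The third gene, slc17a8, has target OTTDART00000017661 (chromosome 18, 6568473 to 6587713). Its file symbol is a clone name that RefSeq lists as a synonym of slc17a8, but the file describes it as similar to a cationic amino acid transporter of another family. Its neighbours in the files, arntl2 (now bmal2) and zgc:92742 (now nr1h4), also flank slc17a8 in the RefSeq table of GRCz12tu. Its intensity was 8875 in control 1, 1710 in control 2 and 2585 in control 3. In lead brains it was 1712, 1931 and 1767. Control 1 was far above the other 5 brains, which spanned 10.74 to 11.34, and the groups overlapped. Control 3 was next, and the other 4 brains lay within 10.74 to 10.91, so control 2 and the lead brains have no order beyond their spread. The difference was −0.92 ± 0.55, with an interval of −2.23 to 0.40 and an adjusted p of 0.958 in limma. It was −0.22 ± 0.21 without control 1. Without control 2 it was −1.41, with an interval of −2.63 to −0.20, an unadjusted p of 0.0295 and an adjusted p of 0.578 in limma.

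**Figure D2:**
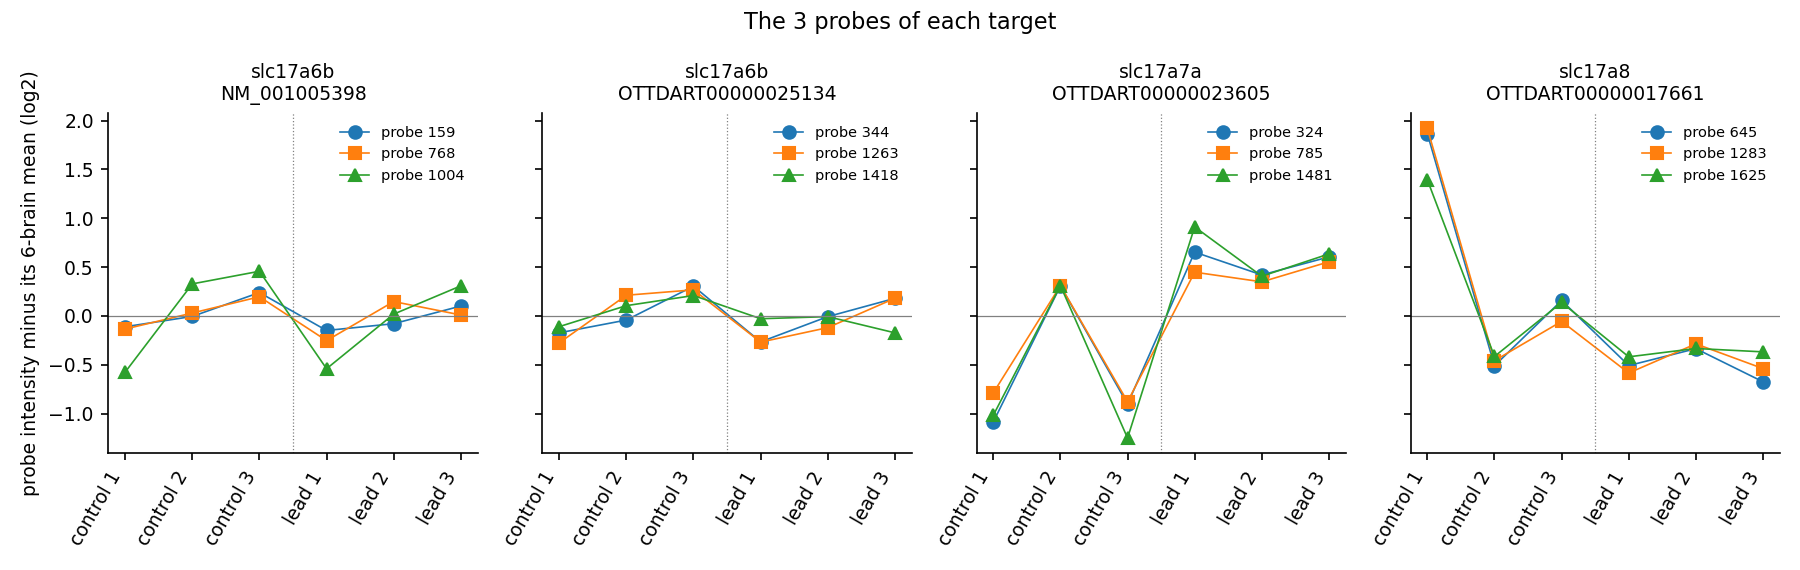
Intensity of each probe minus its own 6-brain mean (log2, vertical axis) in each brain; each panel is a target, each line 1 of its 3 probes, named by the number in the probe name, and lines only guide the eye. The 3 probes of slc17a7a and of slc17a8 follow each other across the brains.

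The 3 probes of slc17a7a and of slc17a8 had the pattern of their targets, while those of slc17a6b differed in how they ordered the brains. For slc17a7a the differences of the 3 probes were 1.12 ± 0.37, 0.90 ± 0.33 and 1.30 ± 0.41. For each the groups did not overlap, a share that was not taken over all probes. These were the 3 of 12 transporter probes with an unadjusted p under 0.05 (smallest adjusted p = 0.956 in limma over 113549 probes), where 2.49% of all probes were called and higher. The 3 probes make up a single target read in the same brains, so they are not separate results. Of all probes, 0.0% were called after adjustment. With the ordinary linear model 0 of the 12 had an unadjusted p under 0.05, and 0 did so without control 1, control 3 or lead 1. For slc17a8 the 3 probes stood at −1.01, −0.94 and −0.75, each with control 1 highest. Its probe numbered 1283 lay under background in lead 1, at 10.00 against 10.36, and in lead 3, at 10.04 against 10.13. The 6 probes of slc17a6b lay between −0.14 and −0.06. They spanned 0.38 to 0.57 across brains, except the one numbered 1004, which spanned 1.03.

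The members were also set against each other within each brain, which removes any factor common to both targets on an array. The value of slc17a7a minus slc17a6b was −1.32, −0.21 and −1.55 in controls and 0.45, 0.02 and 0.06 in lead brains. These groups did not overlap and the shift was 1.20 (two-sided exact permutation p = 0.1, the smallest possible, and 0.3 adjusted over 3 pairs). How often groups fail to overlap for other pairs of targets was not counted. Over the brains slc17a6b spanned 0.44 against 1.68 for slc17a7a. This shift therefore mostly repeats the slc17a7a difference and is not a separate result. For slc17a7a minus slc17a8 the shift was 2.02 (exact permutation p = 0.2, adjusted 0.3), falling to 1.08 without control 1. For slc17a6b minus slc17a8 it was 0.82 (exact permutation p = 0.4, adjusted 0.4), and 0.03 without control 1.

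Among relatives, slc17a6a, the other SLC17A6 duplicate (NM_001009982, Zv7 chromosome 25, 31346983 to 31367292), lay between 14.37 and 14.71 in all brains, at −0.11 ± 0.14. Targets TC262989 and ZV700S00002356, just beyond it and annotated with human SLC17A6 and SLC1A2, were at −0.12 ± 0.19 and −0.25 ± 0.14. The groups of ZV700S00002356 did not overlap, as for 3.75% of all targets that were lower in lead. Target ZV700S00003232, annotated with human SLC17A6 on chromosome 7, was at −0.02 ± 0.13. The lysosomal sialic acid transporter gene slc17a5 was at 0.13 ± 0.15. None of the 6 related targets had an unadjusted p under 0.05 in limma, and the lowest was 0.118.

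**Figure D3:**
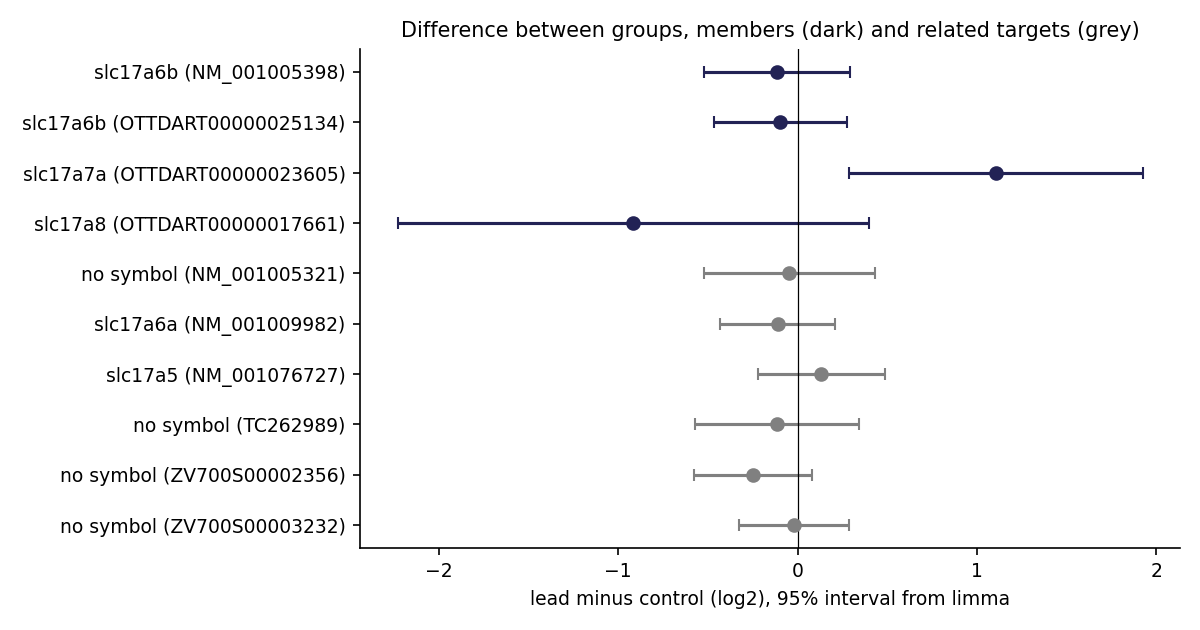
Difference between groups (lead minus control, log2, horizontal axis) with its 95% interval from limma, for the 4 transporter targets (dark) and 6 related targets (grey); n = 3 brains per group. The interval of slc17a7a, 0.28 to 1.92, is the one that does not include 0, before any adjustment over targets.

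Genes that make, recycle, load and sense glutamate were looked at as lists, each gene by its target with the highest mean. These lists and the marker lists below were set with earlier results of these data known. Among 9619 genes, 4.28% had an unadjusted p under 0.05 (3.05% higher, 1.24% lower), 0.0% passed adjustment, and the median difference was 0.03. The vesicular proton pump that powers loading had 16 of 25 genes measured, 9 higher and 7 lower, with a median of 0.01. One of them had an unadjusted p under 0.05: atp6v1e1a, a stalk subunit, at −0.42 ± 0.15. The catalytic subunit gene atp6v1aa was at 0.14 ± 0.12. Glutamate synthesis and recycling genes (15 of 25 measured, 7 higher, 8 lower, median −0.02) had 0 at an unadjusted p under 0.05 in limma. Lower ones include glula, which makes glutamine in glia, at −0.14 ± 0.15, the glutamine carrier slc38a5b at −0.42 ± 0.23, and the mitochondrial transaminase got2b at −0.11 ± 0.14. Higher ones include slc38a7 at 0.35 ± 0.24, slc25a12 at 0.03 ± 0.12 and glulc at 0.26 ± 0.17. Of these, glulc lay above background on 1 of 6 arrays. Plasma membrane uptake genes were measured for 3 of 11 and had a median of 0.04. The glial uptake gene slc1a3a varied most, at 13.38, 12.27 and 11.77 in controls and 12.58, 11.50 and 12.38 in lead brains, at −0.32 ± 0.45. Glutamate receptor genes (13 of 41 measured) were lower for 10 and higher for 3, with a median of −0.10 and 0 at an unadjusted p under 0.05. Examples are the AMPA receptor subunit genes gria4b at −0.37 ± 0.23, gria1a at −0.28 ± 0.21 and gria3a at −0.32 ± 0.28, and the NMDA receptor gene grin2bb at −0.21 ± 0.19. The abundant gria2b and grin1b were near no difference, at 0.01 ± 0.13 and −0.0009 ± 0.13. Of other vesicular transporters, 5 of 12 were measured (median −0.05, 0 at an unadjusted p under 0.05), with the GABA and glycine transporter gene slc32a1 at −0.19 ± 0.15. Only slc32a1 lay above background on all arrays, and 3 of the 5 lay below it on all. The median is the value of 1 of these 3, slc18b1.

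The median of the cerebellar granule cell markers was low in controls 1 and 3, as slc17a7a was, though not all its genes were. Of 24 genes on that list, which was set with earlier results of these data known, 15 were measured, 11 higher and 4 lower. Their median was 0.32. Of these, 6 had an unadjusted p under 0.05 in limma, all higher, and 0 passed adjustment. Of all genes, 3.05% were higher at that p. Because of how the list was set, its count is a description and no independent test. The median deviation of the list from the 6-brain mean was −0.30, 0.10 and −0.34 in controls 1, 2 and 3, against −1.03, 0.29 and −0.91 for slc17a7a. In lead brains 1, 2 and 3 the list lay at 0.20, 0.23 and 0.24, against 0.64, 0.40 and 0.61 for slc17a7a. Controls 1 and 3 were thus the low brains for both. Summed intensity of the list was 166775 to 227216 for controls and 234765 to 268828 for the lead group. This sum holds the 6 genes with an unadjusted p under 0.05 and was not taken without them, so it does not describe the list as a whole. Of the list, zic2a, a regulator of cerebellar progenitors, was at 14.26, 14.81 and 14.17 in controls and 15.18, 15.01 and 15.23 in lead brains (difference 0.73 ± 0.20, adjusted p = 0.958 in limma). The homeobox gene barhl1a, active in the granule cell lineage, was at 10.37, 12.99 and 11.75 in controls and 13.39 to 13.52 in lead brains (1.74 ± 0.59). Progenitor regulators pax6a and pax6b were at 0.96 ± 0.29 and 0.52 ± 0.18. The other genes of the 6 were barhl1b at 0.75 ± 0.31 and the transcription factor gene etv1 at 0.59 ± 0.23. Named after their values were seen, as were barhl1b and etv1, cbln1 and gabra6a had small differences, and atoh1a and calb2a, like calb2b, were highest in control 1, where slc17a7a was lowest. The gene cbln1, a synaptic organizer secreted by granule cells, lay at 0.08 ± 0.13, the GABA receptor subunit gene gabra6a at −0.13 ± 0.14 and the calcium buffer gene calb2b at −0.08 ± 0.26. No marker of the list was below background on all arrays. The count of 6 was 3 without control 1, control 3, lead 1 or lead 3 and 8 without control 2. The count over all targets moved too. Higher at that p in limma were 990 targets with all arrays and 1642 without control 2. Without control 1, control 3, lead 1 and lead 3 in turn they were 672, 490, 604 and 864. The median of the list was 0.13 without control 3. The part of cerebellar tissue in the slc17a7a difference was not tested.

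Pallial markers (5 of 14 measured, 4 higher and 1 lower) had a median difference of 0.31, close to that of the granule cell list, with 0 at an unadjusted p under 0.05 in limma. That median is the value of emx1, at 0.31 ± 0.58 and above background on 2 of 6 arrays. Of the 5 genes, 2 lay above background on all arrays and 1 below it on all, so much of this list is near the floor. They had median deviations of −0.48, 0.40 and −0.58 in controls and −0.13, 1.22 and −0.68 in lead brains, so controls 1 and 3 were low here too, while lead 3 was the lowest brain. Within that list zbtb18, a repressor in cortical neurons, was at 0.52 ± 0.23, and emx3, a pallial regulator above background on 2 of 6 arrays, reached 12.24 in lead 2 against 8.45 to 10.03 in the others. The lower gene was emx2, at −0.22 ± 0.59. The 2 genes above background on all arrays, zbtb18 and emx2, thus differed in opposite directions. Thalamic, tectal and hindbrain markers (10 of 18 measured, 3 higher and 7 lower, median −0.14) had 1 at an unadjusted p under 0.05, the hindbrain regulator tlx3b at 0.88 ± 0.24. Habenula markers (5 of 12 measured, 1 higher and 4 lower) had a median of −0.36. General neuron markers had a median of 0.04 and summed to 276719 to 289932 for controls and 280719 to 300500 for the lead group. Photoreceptor and pineal markers had a median of −0.01 and 1 at an unadjusted p under 0.05 in limma. This was opn1lw1 at 0.38 ± 0.14, below background on every array. GABAergic (11 measured), astroglia (6) and oligodendrocyte (7) markers had medians of 0.00, 0.15 and −0.16. At that p they had 0, 0 and 1, the last being erbb3b at −0.66 ± 0.25 with overlapping groups. Red blood cell markers differed with the groups as well: 11 of 11 were lower, 8 with an unadjusted p under 0.05 in limma. Of all genes, 1.24% were lower at that p. Summed intensity of the red blood cell markers was 106728 to 119803 for controls and 49073 to 100817 for the lead group. Their median difference was −0.92. Their part in the slc17a7a difference was not tested.

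**Figure D4:**
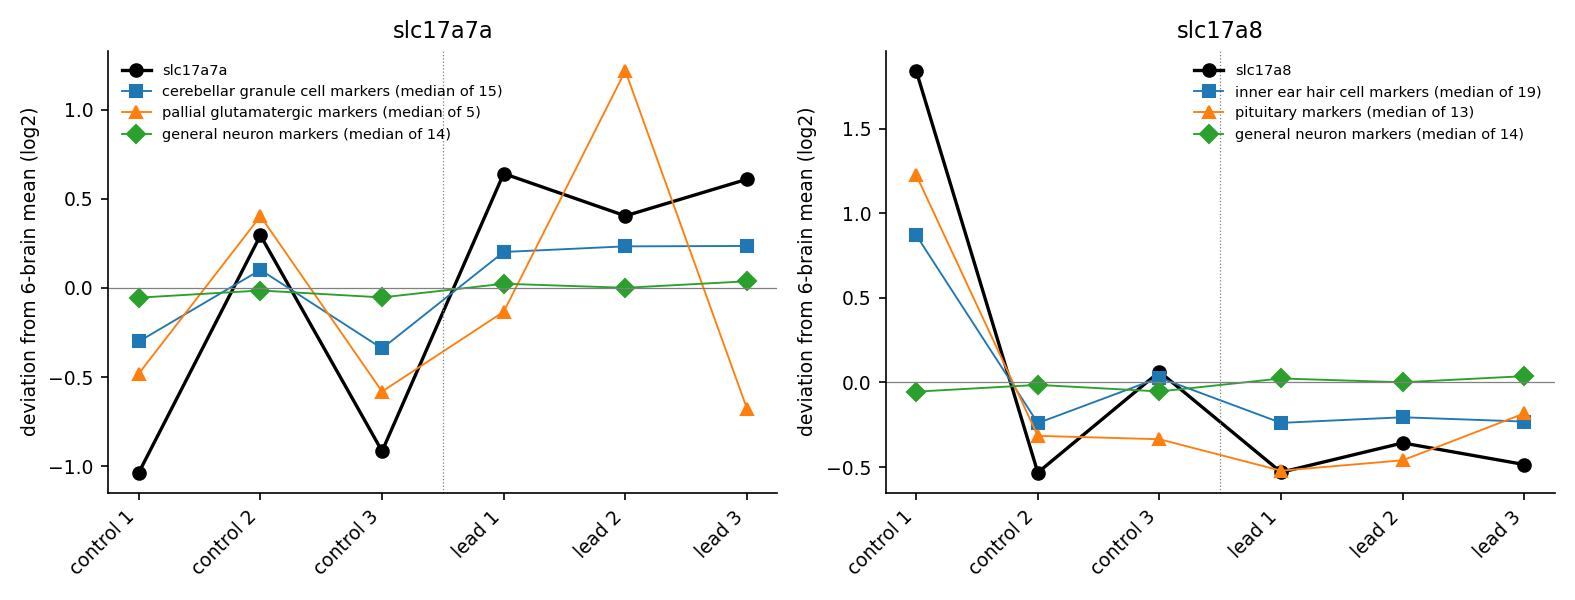
Deviation from the 6-brain mean (log2, vertical axis) in each brain for slc17a7a (left) and slc17a8 (right) in black, with the median deviation of marker lists in colour; the number of genes in each median is in the key and lines only guide the eye. The cerebellar and pallial lists both dip with slc17a7a in controls 1 and 3, and the pallial list is lowest in lead 3. The hair cell and pituitary lists peak with slc17a8 in control 1.

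The medians of hair cell and pituitary markers were high in the brain with high slc17a8. Of 30 inner ear hair cell markers 19 were measured, 3 higher and 16 lower in lead, with a median of −0.31 and 0 at an unadjusted p under 0.05 in limma. The median deviation was 0.87 in control 1 and between −0.24 and 0.03 in the other brains. Summed intensity was 190813 in control 1, and 99959 to 112642 in the rest. Without s100s and s100t, left out after seeing the data, the other 17 genes summed to 118469 in control 1 and to 97674 to 110362 in the rest. Not all markers were high in control 1: the calmodulin gene calm1a, with the highest level of the list, and the calcium pump gene atp2b1a, named after its values were seen, were lowest there, at 15.05 and 13.35. The gene otofa, which serves vesicle release in hair cells, was at 14.10 in control 1 and 13.60 to 14.25 elsewhere. The motor gene myo7aa, needed in stereocilia, lay at 10.84 in control 1 and at 9.22 to 9.60 elsewhere, under background there. The genes s100s, s100t and tmc2a, singled out after their values were seen, reached 15.23, 15.05 and 11.39 in control 1 against at most 10.29, 10.19 and 7.84 elsewhere. The calcium-binding genes s100s and s100t mark zebrafish hair cells, and tmc2a encodes a part of their transduction channel. Markers below background on all 6 arrays were 2 of the 19. Without control 1 the list had 8 higher and 11 lower and a median of −0.08. Of the 13 pituitary markers measured, 11 were lower in lead, and they summed to 98559 in control 1 and to 14124 to 22857 in the other brains. Of them 0 had an unadjusted p under 0.05 in limma, and 3 lay above background on all arrays. Much of the sum came from few genes, among them pomca and smtlb with intensities of 32470 and 32324 in control 1. By contrast pomcb was highest in control 3, prl in lead 3, and pitx1 and pitx3 in lead 1. These genes were named after their values were seen. The part of ear or pituitary tissue in the slc17a8 signal was not tested.

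Nearest profiles were sought among 6218 genes above background on all arrays, by the root mean square difference of log2 values centred on their 6-brain mean. Members spanning over 1 log2 unit were used, so slc17a6b was left out. These genes were picked for likeness over 6 brains, so their values are a description. For slc17a7a the 5 nearest were arhgap46a (0.08), pkn1b (0.10), fgf8a (0.17), eeig2a (0.18) and zic5 (0.19). The growth factor gene fgf8a, known from the midbrain-hindbrain boundary, was at 10.62, 11.67 and 10.86 in controls and 11.90, 11.96 and 12.09 in lead brains. The zinc finger gene zic5, at 13.22, 14.44 and 13.61 in controls and 14.68, 14.37 and 14.67 in lead brains, had overlapping groups, as had arhgap46a, pkn1b and eeig2a. Kinase gene pkn1b ran at 12.36, 13.61 and 12.50 in controls and 13.97, 13.54 and 14.04 in lead brains. For slc17a8 the 5 nearest were otomp (0.24), gldn (0.28), cnmd (0.34), epyc (0.34) and eya4 (0.36). The first, otomp, encodes a matrix protein of the otolith and was at 12.89 in control 1 and 10.58 to 10.94 elsewhere. The regulator gene eya4, required for hearing in humans, was at 13.04 in control 1 and 11.01 to 11.60 elsewhere. The cartilage protein genes cnmd and epyc reached 13.17 and 13.52 in control 1, with at most 11.00 and 10.79 in the other brains.

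**Figure D5:**
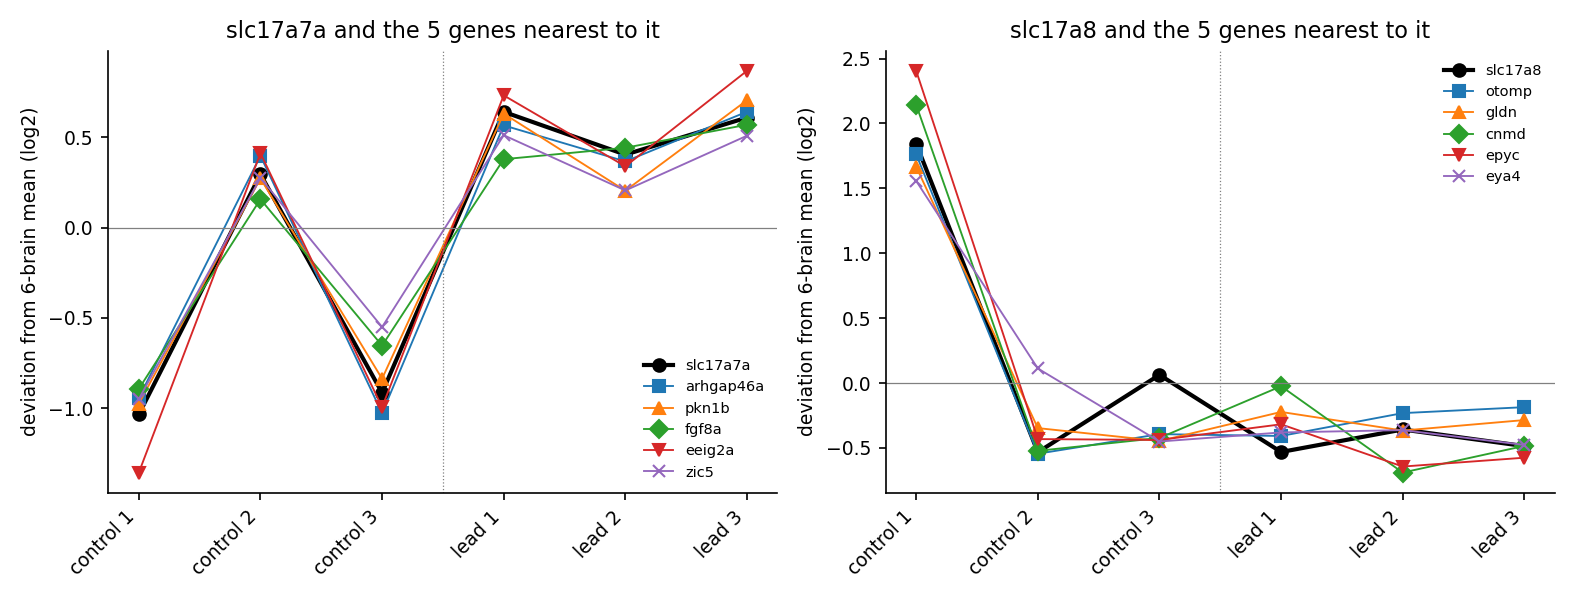
Deviation from the 6-brain mean (log2, vertical axis) in each brain for slc17a7a (left) and slc17a8 (right) in black and for the 5 genes with the smallest root mean square difference from each in colour. The 5 genes near slc17a7a are low in controls 1 and 3, and those near slc17a8 are high in control 1.

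The authors' deposited table of altered targets holds 94 entries, with a smallest absolute fold of 1.501 and a largest p of 0.05, and lists 0 of the 4 transporter targets.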

How the data were processed

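Target intensities, which the authors deposited per array, were made with RMA per the submitters' processing notes. Version and number of arrays normalized together are not given in the sources used here. Values are linear, and log2 was taken with no filter and no constant. The authors also deposited probe intensities for 113549 probes and 27114 random control probes. The authors' deposited table holds for each target a p-value, a log2 ratio and a signed fold score, per the file headers, and its test is not named. Symbols came from the files or RefSeq accessions and synonyms (GRCz12tu, names only): 12877 of 38489 targets matched, and 2663 of 3055 RefSeq targets. Groups were compared with limma 3.58.1 in R 4.3.3 (lmFit, eBayes, two-sided, Benjamini-Hochberg over all targets, threshold 0.05), tested on simulated data first. Plots used matplotlib 3.10.9, and tables numpy 2.4.6 and pandas 2.3.3 under Python 3.11.15. For arrays the number of brains limits precision, and the median standard error of a difference was 0.18. Genes and lists were chosen with earlier results of these data known. Named genes are all member targets, the 5 nearest profiles, and in some lists genes among the 3 of smallest p or highest level. Not all genes under that rule are named, and others were named after their values were seen. Alternatives covered normalization, dim-target filters, moderation, probe medians, array weights, replicate block and each array left out.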

Additional observations from a re-analysis of the deposited data

How the results depend on the processing

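The 3 gene differences kept their sign, and none passed the adjusted threshold, under all 10 planned settings other than leaving out an array and under each array left out. The dim-target filters, the changes of moderation and the replicate block can alter the error and p of a difference but not its size. The sign was thus fixed in advance there. For slc17a7a and slc17a8, with a single target each, it was also fixed where all targets of a gene were averaged. Over those settings slc17a7a lay between 1.099 and 1.19 (adjusted p 0.85 to 0.962), slc17a8 between −1.01 and −0.78 (0.85 to 0.962) and slc17a6b between −0.14 and −0.08 (0.912 to 0.975). Leaving out each array gave 0.86 to 1.53, −1.41 to −0.22 and −0.19 to −0.0052. The within-brain shifts ranged from 0.94 to 1.61 for slc17a7a minus slc17a6b, 1.08 to 2.94 for slc17a7a minus slc17a8 and 0.03 to 1.33 for slc17a6b minus slc17a8. Restricting to targets above the median intensity, which tests fewer targets, gave 1 adjusted call and 978 at an unadjusted p under 0.05; leaving out arrays gave 0 and 1063 to 3098, the highest without control 2. The excess of higher over lower targets at that p (990 and 706) turned with the replicate block (991 and 1044) and without control 1 (672 and 760), control 3 (490 and 585) or lead 2 (960 and 1094). Of 12 transporter probes, 0 to 6 had an unadjusted p under 0.05 with an array left out, and 0 with the ordinary linear model; the causes were not tested. Hair cell markers had 0 to 3 lower at that threshold and granule cell markers 3 to 8 higher, in alternatives chosen after seeing the data. With the replicate number as a block slc17a7a was 1.103 (adjusted p = 0.85), slc17a8 −0.92, slc17a6b −0.10, and 2035 targets had an unadjusted p under 0.05, 0 past adjustment. Whether equal numbers pair the brains is not known from the labels. Deviations of same-numbered brains correlated across targets, which are not independent, at 0.31, 0.03 and −0.05. Those of a control and a lead brain with different numbers correlated at −0.23 to 0.24.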
